A study of Homo sapiens with 12 samples.

Results

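The genes examined here encode histone variants, the histones that are largely made outside the bulk supply of S phase and that replace or link the standard ones. They were H2AFX, H2AFY, H2AFZ, H2AFV and H2AFJ of the H2A family, H3F3A, H3F3B and CENPA of the H3 family, and the linker histone gene H1FX. The group was taken by name and made 10 of the 34687 gene rows in the table of expression values, of which these 9 are described. H2AFX was selected on the measured values, because its signal was lower than in the DMSO control in all 8 comparisons with a drug, so its values in those comparisons are a description and no test.

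RNA was measured on Illumina HumanHT-12 v4 BeadChips, on which labelled RNA binds to probes on beads, in 2 established human cancer lines, HCT116 from colon and PANC1 from pancreas. Cells of each line received the solvent DMSO at 0.05% or one of the drugs ICG-001 and C646 at 10 uM for either 12 or 96 h before RNA was taken, which gave 12 groups. ICG-001 keeps the co-activator CBP from binding β-catenin, and C646 inhibits the acetyltransferase activity of CBP and of its relative p300. The design asks how these inhibitors alter expression in each line and whether they do so alike. No cell carried a genetic change made for the experiment. Cells collected at 12 h were grown denser before drug or solvent was added, and cells collected at 96 h were started sparser, passaged, and given fresh medium with drug each day, so time and culture handling cannot be told apart.

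Each group had 1 column of values, the mean the authors took over 2 arrays, or over 3 arrays for PANC1 cells with ICG-001 for 12 h. The values are signals, the brightness of a gene's probes on a linear scale. With 1 column a group there is no spread between replicates, so no test was run, and every difference below is a size measured between 2 columns. A gene was tested in a comparison where it lay above the detection limit in at least 1 of the columns (in HCT116 columns the limit was a signal of 143.8 to 144.4, in those of PANC1 one of 135.5 to 138.1), and it was counted as lower or higher at a ratio of at least 1.5. The log2 ratios of genes under the limit had an SD of 0.0617 to 0.0732 over all comparisons. The array columns of the lines were normalized apart, so signals are compared within a line and lines through their ratios. All 9 genes were above the limit in all 12 columns.

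The epithelial genes EPCAM, CDH1, KRT8 and KRT18 were above the limit in every column of both lines, and the leukocyte genes PTPRC and CD3E were under it in every column. Of 6 intestinal genes, CDX2 was above the limit in all 6 HCT116 columns and GPA33 in 5, whereas CDX1, VIL1, CDH17 and LGALS4 were under it in all 6. The 4 pancreatic duct genes KRT7, KRT19, SOX9 and PDX1 were above the limit in all 6 PANC1 columns. CDX2 and the duct genes did not tell the lines apart by this limit. CDX2 was also above it in all 6 PANC1 columns, KRT19, SOX9 and PDX1 in all 6 HCT116 columns and KRT7 in 4 of those. LGALS4 and GPA33 were above it in 5 PANC1 columns each, and CDH17 in 2. The mesenchymal gene CDH2 did tell the lines apart, being under the limit in all 6 HCT116 columns and above it in all 6 PANC1 columns. VIM was above it in every column, at 257.2 to 335.1 in HCT116 and 14637 to 18144.3 in PANC1. Of the fibroblast genes, COL1A1 was above it in every column and COL3A1 in 5 PANC1 columns only.

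Nucleosomes are built mostly from histones whose genes are switched on during DNA replication and whose mRNAs end in a stem-loop. Variant histones come from genes that are largely active through the cell cycle and make polyadenylated mRNA, and each marks a place or an event on the chromatin. H2AX, from H2AFX, is phosphorylated around DNA double-strand breaks. H2A.Z, from H2AFZ and H2AFV, sits at promoters and enhancers, macroH2A, from H2AFY, carries a large extra domain and is common on silent chromatin, and H3.3, one protein encoded by both H3F3A and H3F3B, is laid down at active genes. CENP-A replaces H3 at centromeres, and H1X, from H1FX, binds the linker DNA between nucleosomes. H2AFX is unusual in giving both a short stem-loop mRNA and a longer polyadenylated one. The labelling used here starts from poly(A) tails, so a stem-loop mRNA without a tail would be largely missed. The position of the array's probe was not known, and the forms were not measured apart.

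The signals of these 9 genes in the 12 columns show which of them moved with drug and time.

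**Figure D1:**
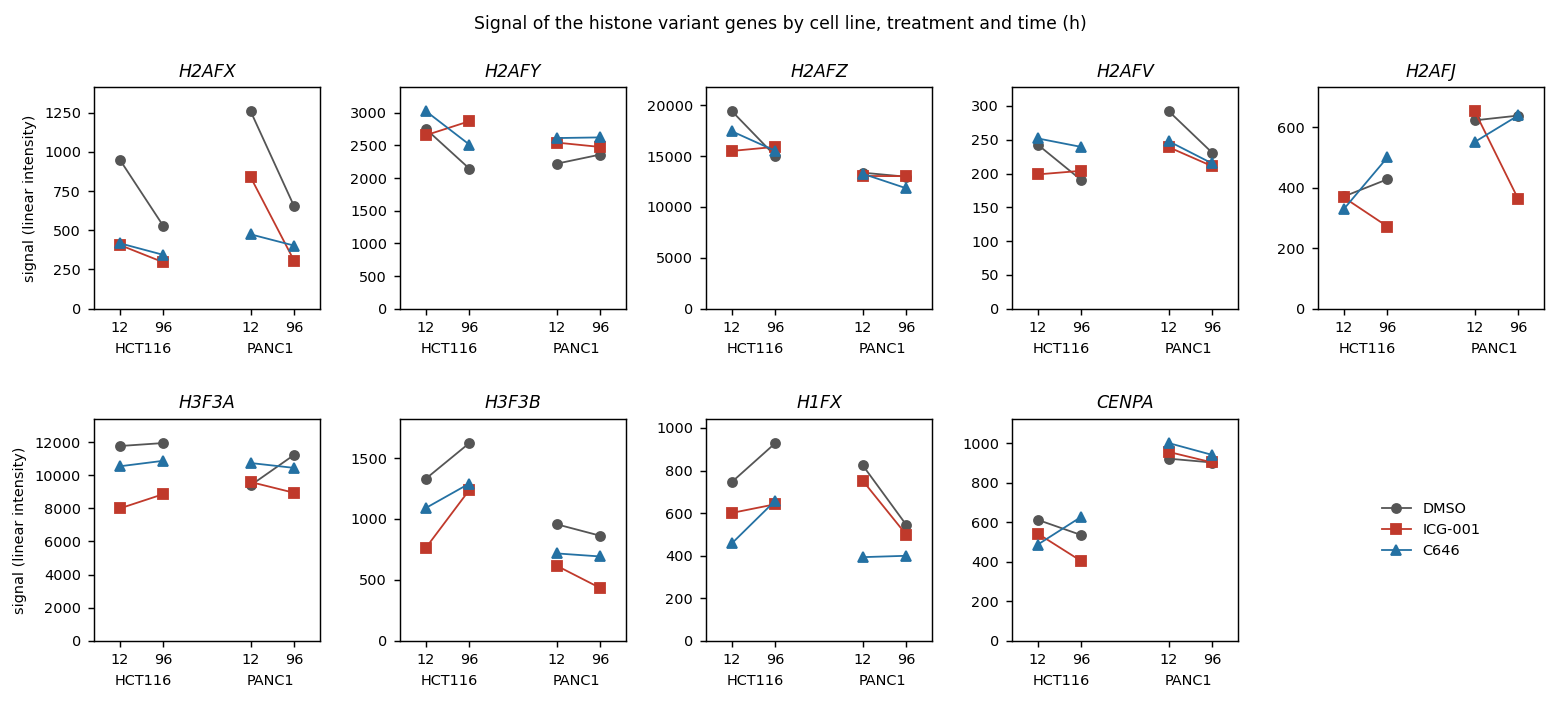
Signal (linear intensity, axis from 0) of each histone variant gene in HCT116 and PANC1 cells at 12 and 96 h, 1 point per column (DMSO grey circles, ICG-001 red squares, C646 blue triangles), with a line joining the time points of a treatment. H2AFX lay between 296 and 951 in HCT116 and between 306 and 1260 in PANC1 cells, with the DMSO 12 h column at the top in both lines, while H2AFZ stayed between 15002 and 19434 and between 11842 and 13378.

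In HCT116 cells, the H2AFX signal was 951 under DMSO, 406 under ICG-001 and 417 under C646 at 12 h. At 96 h it was 527 under DMSO, 296 under ICG-001 and 343 under C646. All 4 drug columns of this line thus lay under both DMSO columns, a pattern held by 10.8% of the 18914 genes above the limit in at least 1 HCT116 column (11.4% had all 4 drug columns over both DMSO columns). Each signal is an average over a dish, so less RNA per cell and fewer cells making it cannot be told apart.

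In PANC1 cells, the H2AFX signal was 1260 under DMSO, 840 under ICG-001 and 474 under C646 at 12 h. At 96 h it was 652 under DMSO, 306 under ICG-001 and 402 under C646. Here drug and DMSO columns overlapped, because the ICG-001 12 h column, at 840, was brighter than the DMSO 96 h column, at 652 (log2 ratio 0.36 between them). In this line 13.3% of the 19216 genes above the limit had all 4 drug columns under both DMSO columns, and 13.5% had them over.

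Against DMSO of the same time, ICG-001 for 12 h gave a H2AFX signal 2.34-fold lower in HCT116 cells, and C646 for 12 h gave one 2.28-fold lower. After 96 h the signal was 1.78-fold lower for ICG-001 and 1.54-fold lower for C646. In PANC1 cells ICG-001 for 12 h gave a signal 1.501-fold lower and C646 for 12 h one 2.66-fold lower, and after 96 h it was 2.14-fold lower for ICG-001 and 1.62-fold lower for C646. Ranked from the lowest ratio, H2AFX was number 7 of 17346 genes tested with C646 at 12 h in PANC1 and number 9 of 16743 with C646 at 12 h in HCT116 cells. It was number 344 of 16896 with ICG-001 at 96 h in HCT116 cells, its least extreme place. The 4 DMSO columns each serve both drugs, so the 8 ratios are not 8 separate measurements.

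Among 13423 genes tested in all 8 comparisons, 4 genes (0.0298%) were at least 1.5-fold lower in each, and H2AFX was the one with the smallest margin. Its least fall, 1.501-fold, stood just inside the threshold, below those of CNOT3 (1.511-fold), LOC644936 (1.609-fold) and YWHAE (1.669-fold). LOC646966 (1.47-fold) and PKM2 (1.451-fold) stood just outside it. A ratio under 0 on the log2 scale in all 8 comparisons, whatever its size, was found for 11.8% of those 13423 genes and for 3 of the 9 histone variant genes, H2AFX, H3F3B and H1FX.

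H2AFX was also lower at the later time without any drug. Between the DMSO columns, the 96 h signal was 1.80-fold below the 12 h signal in HCT116 (number 60 from the lowest of 16458 genes tested), and 1.93-fold below it in PANC1 cells (number 4 of 16471). With ICG-001, this time difference was 1.37-fold for HCT116 cells and 2.75-fold for PANC1 cells, where H2AFX had the second-lowest ratio of 17531 genes. With C646 it was smaller, 1.22-fold for HCT116 cells and 1.18-fold for PANC1 cells. H2AFX was therefore lower at 96 h in all 6 pairs of columns, as were 10.1% of the 13330 genes tested in all 6. The difference between the DMSO columns was as large as several of the differences with a drug, and it lowers the DMSO reference of the 96 h comparisons.

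To show the sequence in front of the genes whose signal was lower in all 8 comparisons, the 250 bases before the RefSeq start site are given for H2AFX, H3F3B and H1FX, with those of H2AFZ, whose signal moved little, for contrast. Capitals mark CCAAT and TATAAA on either strand (reverse complements ATTGG and TTTATA). All lie on the minus strand of GRCh38.p14, at chr11:119095466-119095715 for H2AFX, chr17:75779780-75780029 for H3F3B, chr3:129316287-129316536 for H1FX and chr4:99950276-99950525 for H2AFZ, and are printed 5′ to 3′ as the gene is read.
H2AFX: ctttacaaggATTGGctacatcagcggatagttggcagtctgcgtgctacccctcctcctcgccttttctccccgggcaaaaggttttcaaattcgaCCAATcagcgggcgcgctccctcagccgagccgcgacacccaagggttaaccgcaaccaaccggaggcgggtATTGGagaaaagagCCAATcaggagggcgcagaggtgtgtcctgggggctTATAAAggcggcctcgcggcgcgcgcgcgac
H3F3B: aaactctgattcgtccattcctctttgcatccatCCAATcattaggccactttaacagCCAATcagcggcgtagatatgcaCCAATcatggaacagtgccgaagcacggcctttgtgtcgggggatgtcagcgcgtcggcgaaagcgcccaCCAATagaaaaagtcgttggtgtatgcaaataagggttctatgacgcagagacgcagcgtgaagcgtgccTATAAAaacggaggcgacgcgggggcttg
H1FX: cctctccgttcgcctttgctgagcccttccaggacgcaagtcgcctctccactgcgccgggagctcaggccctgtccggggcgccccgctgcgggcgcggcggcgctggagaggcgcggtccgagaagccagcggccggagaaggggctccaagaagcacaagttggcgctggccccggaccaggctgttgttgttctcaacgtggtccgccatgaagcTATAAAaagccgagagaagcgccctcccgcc
H2AFZ: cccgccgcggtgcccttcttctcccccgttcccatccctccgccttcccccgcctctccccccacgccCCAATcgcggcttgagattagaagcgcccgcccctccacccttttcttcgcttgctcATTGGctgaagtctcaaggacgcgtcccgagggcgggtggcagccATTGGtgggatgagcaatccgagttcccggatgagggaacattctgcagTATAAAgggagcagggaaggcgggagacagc

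CCAAT is the core of the box bound by NF-Y, and TATAAA is the TATA box, whose first base lies 31 bases before the start site of H2AFX, H1FX and H2AFZ and 29 bases before that of H3F3B. CCAAT occurred 4 times in the H2AFX window, 4 times in that of H3F3B, 3 times in that of H2AFZ and 0 times in that of H1FX. Windows with at least 4 made up 0.93% of 27305 RefSeq promoters of the same length, those with at least 3 made up 3.09%, and those with at least 1 made up 33.0%. At the first start site listed for each of the 9 genes, 7 windows held at least 1 CCAAT and 5 held at least 3, while 4 held TATAAA, which 11.1% of all windows held. H2AFY and H3F3A have further start sites in the table, and with these 8 genes had a window with CCAAT. Of the genes with 4 CCAAT, H2AFX was at least 1.5-fold lower in 8 of the 8 comparisons, H3F3B in 3 and H2AFV in 0. Of those with 3, H2AFJ was in 2 and H2AFZ in 0, and H1FX, with 0 CCAAT, was in 2. Whether CCAAT has a part in the signals was not tested. The cell cycle element TTTGAA was present in the windows of H2AFX and CENPA and in 13.6% of all windows. An E2F-type GCGGGAA was in the window of CENPA, in that of the second start site of H3F3A and in 5.59% of all first windows. These are matches of letters and no evidence of a bound factor.

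In the RefSeq gene table, H2AFX (now H2AX) lies wholly inside the span of DPAGT1, an enzyme gene of N-glycosylation read from the same strand. The DPAGT1 row did not move with H2AFX, since its log2 ratio to DMSO was between -0.18 and 0.47 and above 0 in 7 of the 8 comparisons.

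H3F3B (now H3-3B) was also lower in all 8 comparisons with DMSO, and its signals separated in both lines. In HCT116 cells it was 1329 under DMSO, 761 under ICG-001 and 1089 under C646 at 12 h, and 1623, 1238 and 1290 at 96 h. In PANC1 cells the signals were 956 under DMSO, 616 under ICG-001 and 716 under C646 at 12 h, and 862, 433 and 691 at 96 h. All 4 drug columns lay under both DMSO columns in each line, as they did for 4.29% of the 16925 genes above the limit in both lines, and no other histone variant gene had this in both. The ratio passed 1.5-fold with ICG-001 at 12 h in HCT116 (1.75-fold lower) and with ICG-001 in PANC1 cells at 12 h (1.55-fold lower) and 96 h (1.99-fold lower). With C646 it did not pass in any of the 4 comparisons, with log2 ratios of -0.29 to -0.42. The row of H3F3C (as LOC440093), named after its values were seen, went the other way. It was above DMSO in all 8 comparisons, with log2 ratios of 0.12 to 0.55 and a highest signal of 3638.5. Whether its probe and that of H3F3B share RNA was not tested.

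H3F3A (now H3-3A), which encodes the same H3.3 protein, was below DMSO with its partner in HCT116 cells and, in PANC1 cells, at 96 h only. At 12 h in PANC1 cells the log2 ratio of H3F3A was 0.03 with ICG-001 and 0.19 with C646, against -0.635 and -0.42 for H3F3B. At 12 and 96 h in HCT116 cells its signal was 11774 and 11955 under DMSO, 7999 and 8864 under ICG-001, and 10548 and 10881 under C646. All 4 drug columns thus lay under both DMSO columns, as they did for 10.8% of the genes above the limit in this line. The PANC1 signals were 9393 and 11239 under DMSO, 9598 and 8944 under ICG-001, and 10746 and 10451 under C646, and the treatments overlapped. The lowest log2 ratio was -0.56, with ICG-001 at 12 h in HCT116 cells, and no comparison passed 1.5-fold. The array also had rows for H3F3A relatives that RefSeq lists as pseudogenes (H3P44, H3P6 and H3P16, in the table as LOC347376, LOC440926 and LOC644914). Their log2 ratios with ICG-001 at 12 h in HCT116 cells were -0.70, -0.70 and -0.81, and probes for such near copies can share RNA, so the H3F3A signal is uncertain to that extent.

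CENPA, the centromeric H3, showed small ratios of both signs. At 12 and 96 h in HCT116 cells its signal was 612 and 534 under DMSO, 542 and 402 under ICG-001, and 487 and 628 under C646. In PANC1 cells all 6 columns lay between 902 and 1001. Its log2 ratio to DMSO was between -0.41 and 0.23, below 0 in 3 of the 8 comparisons.

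H1FX (now H1-10) was lower in all 8 comparisons with DMSO, most with C646 at 12 h. In HCT116 cells its signal was 746 under DMSO, 601 under ICG-001 and 457 under C646 at 12 h, and 929, 642 and 659 at 96 h. Every drug column of this line lay under both DMSO columns, as for 10.8% of the genes above the limit there. In PANC1 cells the signals were 825 under DMSO, 753 under ICG-001 and 393 under C646 at 12 h, and 545, 499 and 399 at 96 h, and the ICG-001 12 h column overlapped the DMSO columns. After 12 h of C646, H1FX stood 1.63-fold under DMSO in HCT116 cells, and 2.10-fold under it in PANC1. With ICG-001 in PANC1 cells the log2 ratio was -0.13 at both times.

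Among the other H2A variants, H2AFJ was lower with ICG-001 at 96 h in both lines. At 12 and 96 h its HCT116 signals were 371 and 428 under DMSO, 368 and 272 under ICG-001, and 330 and 500 under C646. Its PANC1 signals were 623 and 638 under DMSO, 653 and 362 under ICG-001, and 551 and 639 under C646. The ICG-001 96 h column was the dimmest of both lines, 1.58-fold under DMSO in HCT116 cells, 1.76-fold under it in PANC1, and no other comparison with DMSO passed 1.5-fold. H2A.J differs from standard H2A mainly at its tail and is made without regard to replication.

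H2AFY, H2AFZ and H2AFV were not lower or higher by 1.5-fold with any drug. The macroH2A gene H2AFY had signals of 2145 to 3026 in HCT116 columns. In PANC1 cells it had 2220 and 2360 with DMSO against 2477 to 2623 in the 4 drug columns. All 4 lay over both DMSO columns, as they did for 13.5% of the genes above the limit in PANC1. The log2 ratio of H2AFY to DMSO was between -0.05 and 0.42. H2AFZ lay between 15002 and 19434 in HCT116 columns, and PANC1 columns ran from 11842 to 13378, with log2 ratios of -0.33 to 0.09. H2AFV, whose signals came closest to the detection limit, had HCT116 signals of 190 to 252, PANC1 signals of 211 to 292, and log2 ratios of -0.29 to 0.33. Background was left in the signal, so the ratios of such dim rows understate differences. After background correction by normexp, H2AFV was more than 1.5-fold higher with C646 at 96 h in HCT116 cells (log2 ratio 0.62).

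Across the 9 genes, 15 of the 72 gene and drug comparison pairs were at least 1.5-fold lower and 0 were higher, of which H2AFX gave 8, H3F3B 3, H2AFJ 2 and H1FX 2. Over all genes tested in the same comparisons, 2.5% of pairs were lower and 3.45% were higher. The H2AFX pairs were fixed by its selection.

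**Figure D2:**
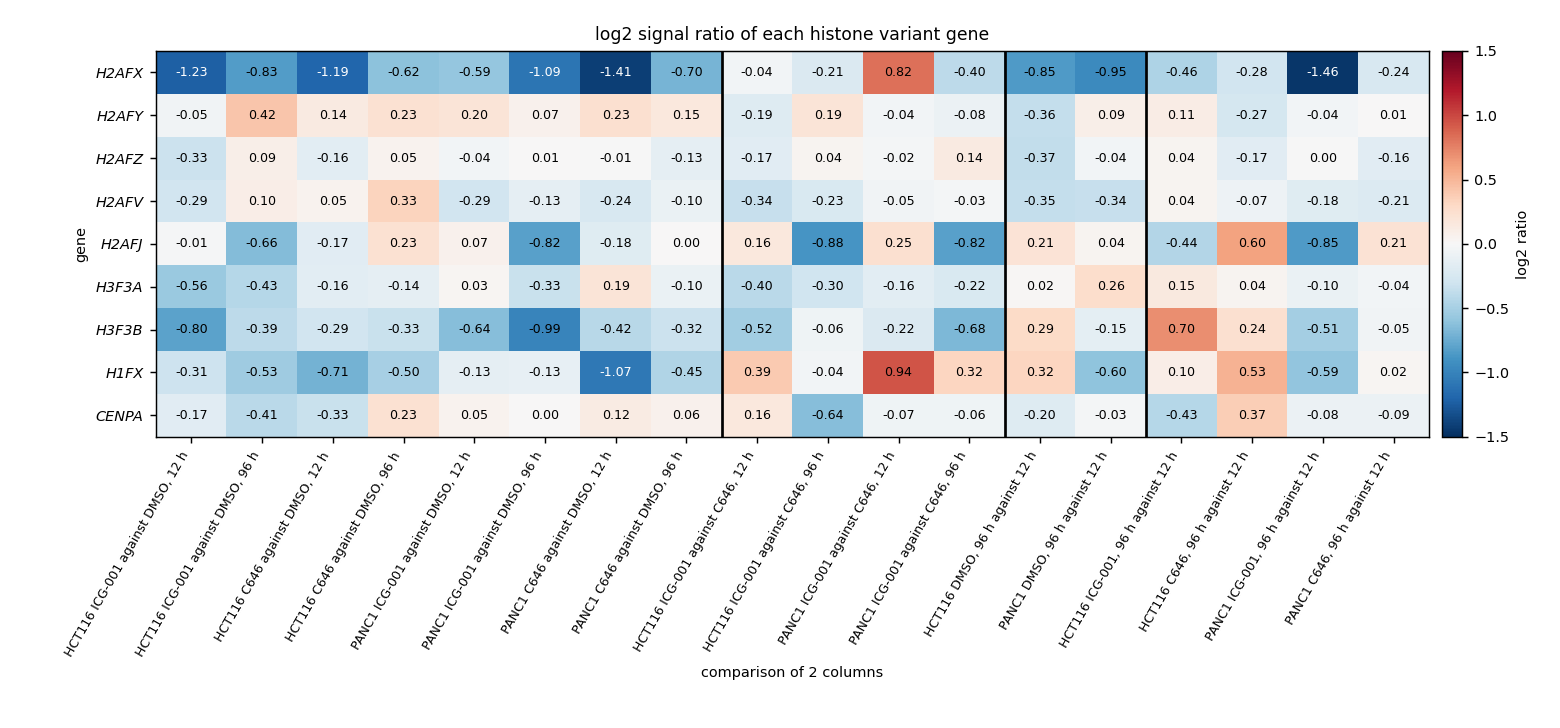
Log2 signal ratio of each histone variant gene (rows) in each comparison of 2 columns (columns of the map), blue for lower and red for higher, with the value in each cell; black lines divide drug against DMSO, ICG-001 against C646, DMSO over time and drug over time. The H2AFX row is blue in all 8 comparisons with DMSO (-0.59 to -1.41) and in both comparisons between the DMSO columns (-0.85 and -0.95).

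In HCT116 cells with ICG-001 for 12 h, H2AFX and H3F3B made 2 genes lower and 0 higher, against 4.21% lower and 4.89% higher of the 16802 genes tested. After 96 h with ICG-001, H2AFX and H2AFJ made 2 lower and 0 higher, against 5.17% and 5.2% of 16896 genes. With C646 for 12 h, H2AFX and H1FX made 2 lower and 0 higher, against 1.55% and 2.63% of 16743 genes. After 96 h with C646, H2AFX alone was lower, against 1.23% lower and 1.92% higher of 16692 genes. H2AFX was in every comparison by its selection, and HCT116 cells had a different second gene in each of 3.

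In PANC1 cells with ICG-001 for 12 h, H2AFX and H3F3B were again the 2 lower genes, with 0 higher, against 0.339% lower and 2.2% higher of 17094 genes. After 96 h with ICG-001, H2AFX, H3F3B and H2AFJ made 3 lower, against 3.6% lower and 3.89% higher of 17157 genes. With C646 for 12 h, H2AFX and H1FX made 2 lower, against 2.72% lower and 4.03% higher of 17346 genes. After 96 h with C646, H2AFX alone was lower, against 1.2% lower and 2.84% higher of 16939 genes. By drug, then, H3F3B and H2AFJ passed 1.5-fold with ICG-001 and H1FX with C646, in both lines but not at every time. This split rests on the threshold, since H3F3B and H1FX were below DMSO with both drugs in every comparison. At 96 h in HCT116 cells, H1FX was 1.448-fold lower with ICG-001 and 1.411-fold lower with C646.

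**Figure D3:**
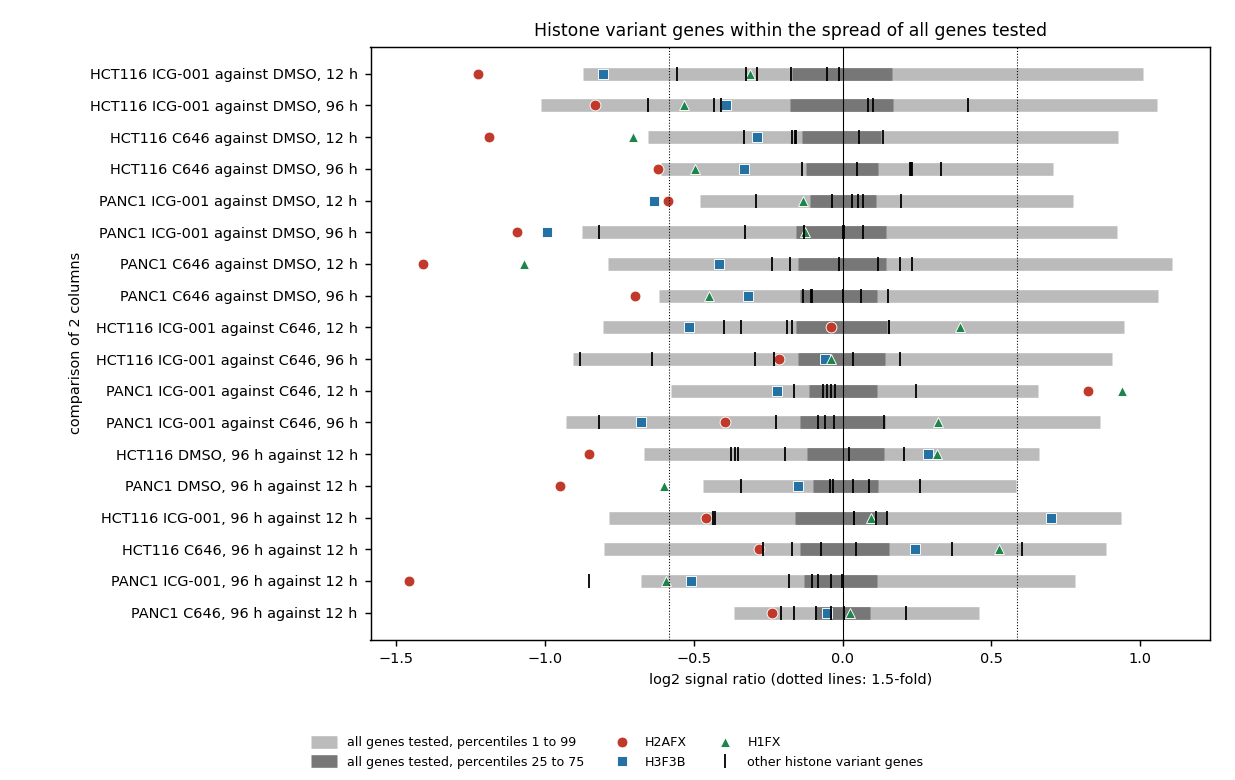
Log2 signal ratio of H2AFX (red circles), H3F3B (blue squares), H1FX (green triangles) and the other histone variant genes (black ticks) in each comparison, over the spread of all genes tested (light bars, percentiles 1 to 99; dark bars, percentiles 25 to 75; dotted lines, 1.5-fold). H2AFX lies left of the light bar in 7 of the 8 comparisons with DMSO; with ICG-001 at 96 h in HCT116 cells it lies inside, at -0.83 where the first percentile was -1.02.

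The drugs were compared with each other without a DMSO column. At 12 h in HCT116 cells, 0 histone variant genes were lower or higher with ICG-001 than with C646, against 2.85% lower and 3.49% higher of 16895 genes tested. At 96 h in HCT116 cells, H2AFJ (1.84-fold) and CENPA (1.56-fold) were lower with ICG-001, against 3.31% lower and 3.26% higher of 16970 genes. H2AFX differed little between the drugs in this line, with log2 ratios of -0.04 at 12 h and -0.21 at 96 h.

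At 12 h in PANC1 cells, H2AFX (1.77-fold) and H1FX (1.92-fold) were higher with ICG-001 than with C646 and 0 were lower, against 1.59% higher and 0.937% lower of 17499 genes. At 96 h, H2AFJ (1.76-fold) and H3F3B (1.60-fold) were lower and 0 were higher, against 3.36% higher and 3.52% lower of 17467 genes. H2AFX was then slightly lower with ICG-001, with a log2 ratio of -0.40, so the drugs changed order between 12 and 96 h in this line.

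Between the DMSO columns, H2AFX was the 1 histone variant gene that was lower at 96 h in HCT116 cells, against 1.58% lower and 1.57% higher of 16458 genes. In PANC1 cells H2AFX and H1FX (1.51-fold) were lower, against 0.334% lower and 0.984% higher of 16471 genes. H1FX had a log2 ratio of 0.32 in HCT116 cells, so its sign differed between the lines, whereas that of H2AFX did not.

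Between the time points with a drug, H3F3B was 1.63-fold higher at 96 h with ICG-001 in HCT116 cells, against 4.12% higher and 2.8% lower of 16920 genes. With C646 in the same line H2AFJ was 1.52-fold higher, against 3.84% higher and 3.31% lower of 16930 genes. With ICG-001 in PANC1 cells, H2AFX (2.75-fold), H2AFJ (1.80-fold) and H1FX (1.51-fold) were lower at 96 h, against 1.76% lower and 2.24% higher of 17531 genes, and all 9 genes had a log2 ratio below 0, as did 51.6% of all genes tested. With C646 in PANC1 cells 0 of the 9 passed, against 0.0808% lower and 0.404% higher of 17317 genes. With all 12 columns normalized together, the log2 ratios of H2AFJ with C646 in HCT116 cells (0.58) and of H1FX with ICG-001 in PANC1 cells (-0.57) fell short of 1.5-fold. The 12 h ICG-001 column of PANC1 is the one averaged over 3 arrays.

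The pattern of H2AFX over the 12 columns, with log2 signals centred within each line, was set beside those of the 2372 genes above the limit in every column and varying at least 1.5-fold in both lines. The closest was SMARCC1, a core subunit of the SWI/SNF chromatin remodeller, with a Pearson's r of 0.97. Next came BAT1 (now DDX39B), an RNA helicase of mRNA splicing and export, also with 0.97, and MRPS21, a protein of the mitochondrial ribosome, with 0.965. LOC731314 and LOC652672, which the table gives no other name, had 0.95 each. These correlations are descriptions over 12 columns that share their DMSO references and their normalization.

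**Figure D4:**
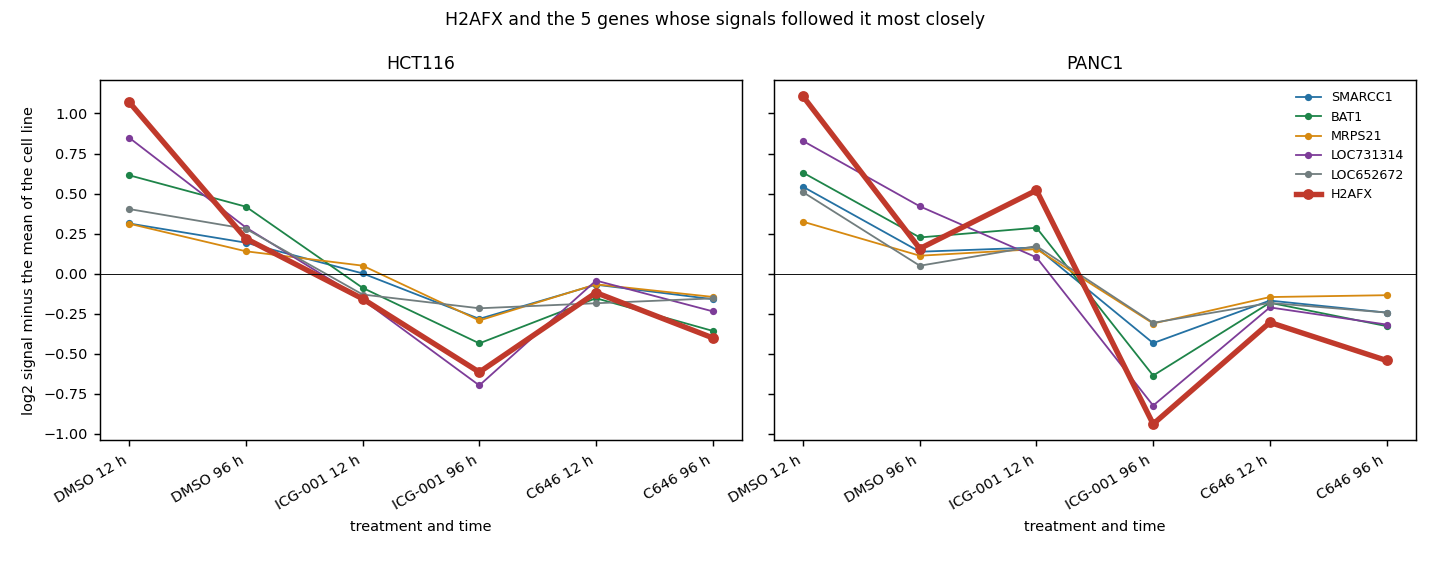
Log2 signal minus the mean of the cell line for H2AFX (thick red line) and the 5 genes most like it in each of the 6 columns of HCT116 (left) and PANC1 (right); lines join the columns only to guide the eye. The genes share the top at DMSO 12 h and the bottom at ICG-001 96 h in both lines, and H2AFX has the widest range of the genes drawn in both lines.

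All 5 of these genes were lower than DMSO in all 8 comparisons, with log2 ratios of -0.31 to -0.71 for SMARCC1, -0.34 to -0.86 for BAT1, -0.17 to -0.47 for MRPS21, -0.52 to -1.24 for LOC731314 and -0.29 to -0.69 for LOC652672. The 5 were picked for following H2AFX, which was selected on these comparisons, so their falls describe that choice and are no separate result. Of 13423 genes tested in all 8 comparisons, 11.8% were below DMSO in each. Of the other histone variant genes, H1FX followed H2AFX most, with an r of 0.68, and then H2AFV (0.58), H2AFZ (0.55) and H3F3B (0.54). H2AFY had a negative value (-0.32). Of the group, H1FX, H3F3B and H2AFJ varied enough to be among the 2372 genes, and none was among the 5 closest.

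Genes that place or read the variants were examined as lists. Of 32 histone chaperones and remodellers, 13 of 246 tested gene and comparison pairs were lower (5.28%) and 5 were higher (2.03%). Over all genes, 2.5% of tested pairs were lower and 3.45% were higher. SUPT16H, a subunit of the FACT chaperone that handles H2A-H2B, was at least 1.5-fold lower in 5 of the 8 comparisons, with log2 ratios of -0.46 to -1.07 and a mean of -0.71. SSRP1, the other FACT subunit, went the other way. Named after its values were seen, it was above DMSO in all 8 comparisons, with log2 ratios of 0.05 to 0.52. Apart from SUPT16H, no listed gene of any list was at least 1.5-fold lower or higher in as many as 4. The median log2 ratio of the chaperones was between -0.21 (ICG-001 at 12 h in HCT116) and 0.02, where that of all genes tested was between -0.01 and 0.01.

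The 25 genes that act with phosphorylated H2AX at DNA breaks passed 1.5-fold less often than all genes, of whose pairs 2.5% were lower and 3.45% higher. Of 172 tested pairs, 1 was lower (0.581%) and 2 were higher (1.16%), and the median log2 ratio was between -0.14 and 0.03. For 13 centromere partners of CENPA, 3 of 104 pairs were lower (2.88%) and 1 was higher (0.962%), with medians of -0.24 to 0.03. Of 10 other variant histone genes, between 2 and 4 were above the limit in a comparison, and 1 of 19 pairs passed, macroH2A gene H2AFY2 being higher with ICG-001 at 96 h in PANC1 cells (log2 ratio 0.86).

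Proliferation markers moved with some of these comparisons. Of 11 such genes (among them TOP2A, PCNA, CCNB1, CDC20 and PLK1), 14 of 88 pairs were lower (15.9%) and 4 were higher (4.55%). The shares over all genes were 2.5% and 3.45%. The 4 higher pairs were CDC20 in 3 comparisons and PLK1 in 1, genes named after their values were seen. With ICG-001 in HCT116 cells, 5 of 11 were lower and 1 higher at 12 h (median -0.30), and 3 were lower at 96 h (median -0.16). The PANC1 counts of lower genes with ICG-001 were 1 at 12 h (median -0.33) and 4 at 96 h (median -0.55). With C646 in HCT116 cells, 0 of 11 were lower at either time and 1 was higher at 12 h, with medians of 0.01 and 0.04. With C646 in PANC1 cells, 0 were lower and 2 higher at 12 h and 1 was lower at 96 h, with medians of -0.16 and -0.14. The part of these genes in the values of H2AFX was not tested for either drug.

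Replication-dependent histone genes, whose mRNAs mostly lack a poly(A) tail, were largely dim. Of 70 rows, 21 to 30 were above the limit in a comparison, and 4 of 207 pairs were lower and 4 were higher (1.93% each). The shares over all genes were 2.5% lower and 3.45% higher.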

How the data were processed

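The files held 1 table, whose deposited values are intensity (signal) on a linear scale, 1 per gene name and group. They came out of GenomeStudio, which the submitters' processing notes also name, quantile normalized and with background left in, and the authors then took the mean over replicate arrays (2 arrays for 11 columns and 3 arrays for 1 column, as labelled). Values of single arrays were not used here, so errors and p-values could not be given, and the number of arrays limits the precision. The build of the array annotation is not given in the sources used here.

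Groups came from the labels. Log2 ratios were taken between columns of a cell line, since sorted log2 signals differed by 0.00371 to 0.00929 on average within a line and by 0.0628 to 0.0661 between lines. Each column's detection limit was set at the mode of its log2 signals plus 2.33 SD of the values below the mode. Genes at least 1.5-fold apart counted as lower or higher. Of 34687 rows, 23729 matched a RefSeq gene by symbol, older symbol or identifier (GRCh38.p14), and all 9 histone variant genes described did. RefSeq promoter windows were found for 9 of the 9. The remaining gene of the group of 10 is not reported here.

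The histone variant genes, the gene lists and the thresholds were chosen with earlier results of these data known. The genes named were those 9, the 5 most like H2AFX, the gene that overlaps it, and from each list at most 3 genes in each direction that passed in at least 4 of the 8 comparisons with DMSO. Other genes were also named, some of them after their values were seen. Results were recomputed with thresholds of 1.2-fold and 2-fold, with dim genes kept in, with the limit at 5 SD, with normexp (offset 16) and then quantile normalization inside each line, with ratios centred on the median, with all 12 columns quantile normalized together, and against the DMSO column of the other time point. In simulated data for HCT116 and for PANC1 columns, 200 of 200 genes changed 2-fold were recovered among 16674 and 16632 genes tested, with 0 unchanged genes passing. The simulated noise had only the SD of genes under the limit between the DMSO columns (log2 0.0704 and 0.0709). It therefore checks the calculation and gives no rate of false calls. Between the real DMSO columns, 1.58% of genes were lower and 1.57% higher in HCT116, and 0.334% and 0.984% in PANC1. Python 3.11.15, numpy 2.4.6, pandas 2.3.3, scipy 1.17.1, matplotlib 3.10.9, R 4.3.3 and limma 3.58.1 were used.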

Additional observations from a re-analysis of the deposited data

How the results depend on the processing

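Besides the 8 ratios of H2AFX to DMSO, 21 ratios reached 1.5-fold (against DMSO, between the drugs or between time points). All 21 kept their direction and stayed past 1.5-fold under normexp and under centring on the median. With all 12 columns normalized together, 21 kept their direction and 19 stayed past 1.5-fold, so that 0 genes were counted between the C646 time points in HCT116 and 2 between the ICG-001 time points in PANC1 cells (1 and 3 in the report). The counts of histone variant genes lower or higher were the same in all 18 comparisons with dim genes kept in or with the limit at 5 SD. The alternatives for the time points of a drug were added after seeing the data.

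Under normexp, the H2AFX log2 ratios to DMSO grew. For HCT116 cells they were -1.48 (12 h) and -1.12 (96 h) under ICG-001, and -1.45 and -0.82 under C646. For PANC1 cells they were -0.66 and -1.39 under ICG-001, and -1.63 and -0.86 under C646. Normexp also counted in HCT116 cells 3 histone variant genes with ICG-001 at 96 h (2 in the report), 2 with C646 at 96 h and 2 between the DMSO columns (1 each), 1 between the drugs at 12 h (0), and 3 and 2 between the time points of ICG-001 and of C646 (1 each). In PANC1 cells it counted 4 between the ICG-001 time points (3). Of the genes added in HCT116 cells, H1FX was lower with ICG-001 at 96 h (log2 ratio -0.60). H2AFV was higher with C646 at 96 h (0.62, against 0.33 in the report).

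Against the DMSO column of the other time point, the H2AFX log2 ratios in HCT116 cells were -0.38 (12 h) and -1.68 (96 h) under ICG-001, and -0.34 and -1.47 under C646. In PANC1 cells they were -0.46 and -1.65 under C646. Under ICG-001 in PANC1 cells the ratio was -2.04 at 96 h and reversed to 0.36 at 12 h. Of the other 7 ratios to DMSO of at least 1.5-fold, 7 kept their direction and 4 stayed past 1.5-fold.

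At 1.2-fold, the genes counted in HCT116 cells were 6 (12 h) and 7 (96 h) under ICG-001, 4 and 4 under C646, 4 between the drugs at 12 h, 6 between DMSO columns, and 4 and 5 between the time points of ICG-001 and of C646. In PANC1 cells they were 3 (12 h) and 4 (96 h) under ICG-001, 3 and 3 under C646, and 4 between the drugs at 96 h. The remaining comparisons at this threshold are not listed. At 2-fold, 1 gene was counted in HCT116 cells at 12 h for either drug, and 1 in PANC1 cells for ICG-001 at 96 h and between its time points. For C646 at 12 h in PANC1 cells 2 genes were counted, as at 1.5-fold. The count was 0 for either drug at 96 h in HCT116, for ICG-001 at 12 h in PANC1 and for C646 at 96 h there, between the drugs (HCT116 at 96 h, PANC1 at both times), between the time points of either drug in HCT116 and between the DMSO columns of both lines.

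No paired analysis was possible because each group had 1 column. For the same reason replicates could not be left out in turn and no ratio has an error of its own. Background left in the signal shrinks the ratios of dim rows.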

Other observations

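Named after their values were seen, the replication-dependent histone genes that passed 1.5-fold did so in HCT116 cells at 96 h, where the drugs stood on opposite sides of their shared DMSO column for every one of them except HIST1H4C. With ICG-001, the log2 ratio was -1.22 for HIST1H2BK, -1.20 for HIST1H2BD, -0.84 for HIST1H1C and -0.62 for HIST1H2AC, and 0.61 for HIST1H4C. With C646, it was 0.35, 0.75, 0.57, 0.62 and 0.58 for the same genes, and 0.66 for HIST2H2AA4 (-0.43 with ICG-001). These are genes for H2B, H1, H2A and H4 proteins whose family members are near copies of each other, so their probes can share RNA. In PANC1 cells 0 of these genes passed in any comparison with DMSO.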
